A study of Homo sapiens with 9 samples.

Results

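The 57 genes described here encode the actin filament, the proteins that bundle, cap and anchor it, and the myosins that pull on it. They were taken from a list of gene symbols that was drawn up with earlier results of these data known, so the shares below describe these genes and do not set them apart from others. A peak of the QKI-5 HITS-CLIP list was assigned to a gene when it lay on the strand of the gene and its centre fell within the gene's span. By this rule 45 of the 57 genes held at least 1 peak (78.9%, 95% Wilson interval 66.7 to 87.5%), against 23.6% of all 20162 protein-coding genes. Together they held 465 of the 24037 peaks in the list (1.93%).

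In HITS-CLIP, ultraviolet light ties a protein to bound RNA in living cells, the protein is immunoprecipitated, and the attached RNA is sequenced. The cells were mesHMLE, the mesenchymal-like derivative of HMLE, an immortalised human mammary epithelial line that the labels file under breast cancer. They had been obtained by prolonged TGF-β1 treatment, given for HMLE as 2.5 ng/ml for at least 14 days, and were then kept in the same medium without further TGF-β1. All 9 libraries came from such cells crosslinked with 600 mJ/cm2. An antibody specific for QKI-5 was used for 7 of them. Of these, 3 were cut from the gel at the size of the QKI monomer and 4 at the size of a presumed dimer, and SuperScript IV was the reverse transcriptase for 1 of the 4. The other two were size-matched input without antibody. The labels number the libraries as technical replicates, and they were pooled before peaks were called, so that no value below has a spread between replicates and the depth of a library is unknown. There was 1 condition, so no comparison between treatments can be made, and the peak list holds no expression values against which the cell type could be checked.

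QKI-5 is the nuclear isoform of Quaking, an RNA-binding protein of the STAR family that regulates splicing and recognises ACUAAC or ACUAAU in RNA, usually with a shorter UAAY core nearby. Actin monomers polymerise into filaments, tropomyosins lie along them and govern access of other proteins, α-actinins, filamins and spectrins link them into networks, and myosin II contracts them. Many of these genes are spliced in more than one way, and tropomyosins and myosin light chains are textbook cases. In epithelial to mesenchymal transition, cells exchange cortical actin belts for contractile stress fibres, which is the setting of these libraries.

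The peaks with an ACTAAC word (the DNA letters of ACUAAC) in or within 250 nt of an exon are shown first. They place the best known QKI sequence in or near an exon, and some lie in 3′UTR sequence, as in SPTAN1. The tallest such peak is given for each of the 12 genes where it was highest, and SPTBN1 is added for its peak of 230, which is the second highest of all 465. Sequences are of hg19 (GRCh37), read 5′ to 3′ on the strand of the gene, with ACTAAC in capitals. Peaks that touch an untranslated region of any annotated transcript are cut to the 30 nt around the word, and the others are whole.
MYL6 (chr12:56554959-56554988, + strand): tttgggtgggggACTAACagctgctgggag
SPTBN1 (chr2:54889711-54889815, + strand): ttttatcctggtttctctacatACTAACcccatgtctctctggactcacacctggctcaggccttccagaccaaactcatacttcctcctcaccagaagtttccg
MICAL2 (chr11:12284108-12284137, + strand): tcaaagagtggtACTAACccccaacccgct
PHACTR4 (chr1:28793165-28793194, + strand): gctcctgccagcACTAACactactgctacc
SPTAN1 (chr9:131395742-131395771, + strand): aaatggtgcttcACTAACccgcttccggtc
ACTB (chr7:5568486-5568595, - strand): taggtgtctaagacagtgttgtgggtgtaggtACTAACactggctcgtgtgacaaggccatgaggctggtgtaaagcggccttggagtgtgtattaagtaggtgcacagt
DST (chr6:56327732-56327835, - strand): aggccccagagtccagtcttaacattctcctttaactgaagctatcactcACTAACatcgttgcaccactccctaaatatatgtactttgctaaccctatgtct
EVL (chr14:100604194-100604223, + strand): ccccgtcccgtgACTAACacccttgcacgc
MYO9B (chr19:17294461-17294609, + strand): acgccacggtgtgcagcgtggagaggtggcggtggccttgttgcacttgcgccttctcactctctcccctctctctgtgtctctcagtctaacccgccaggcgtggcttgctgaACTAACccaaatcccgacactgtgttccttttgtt
ROCK1 (chr18:18623927-18623968, - strand): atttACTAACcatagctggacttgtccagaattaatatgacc
RAI14 (chr5:34813618-34813647, + strand): tgcccagactttACTAACcaaACTAACcca
DIAPH3 (chr13:60707001-60707081, - strand): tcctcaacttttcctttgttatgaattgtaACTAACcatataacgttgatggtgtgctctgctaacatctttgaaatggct
TPM3 (chr1:154140539-154140642, - strand): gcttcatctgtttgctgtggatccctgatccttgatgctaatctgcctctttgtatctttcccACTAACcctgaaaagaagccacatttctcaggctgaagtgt

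The number of peaks per gene was very uneven. It was 1 in 7 genes, 2 to 5 in 14, 6 to 9 in 7 and 10 or more in 17, which is 29.8% of the 57 genes against 2.79% of all protein-coding genes. The median of the 45 genes with a peak was 7, and that of all protein-coding genes with a peak was 2. DST, with 57, and TPM1, with 56, together held 113 of the 465 peaks (24.3%), and the 5 genes with most peaks held 208 (44.7%). Over all protein-coding genes, 11 had more peaks than DST and 12 more than TPM1. The 12 genes without a peak were ACTG1, TPM4, PLS3, MYH14, MYL12A, MYL12B, MYO1D, DIAPH1, DIAPH2, VASP, EZR and MSN.

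**Figure D1:**
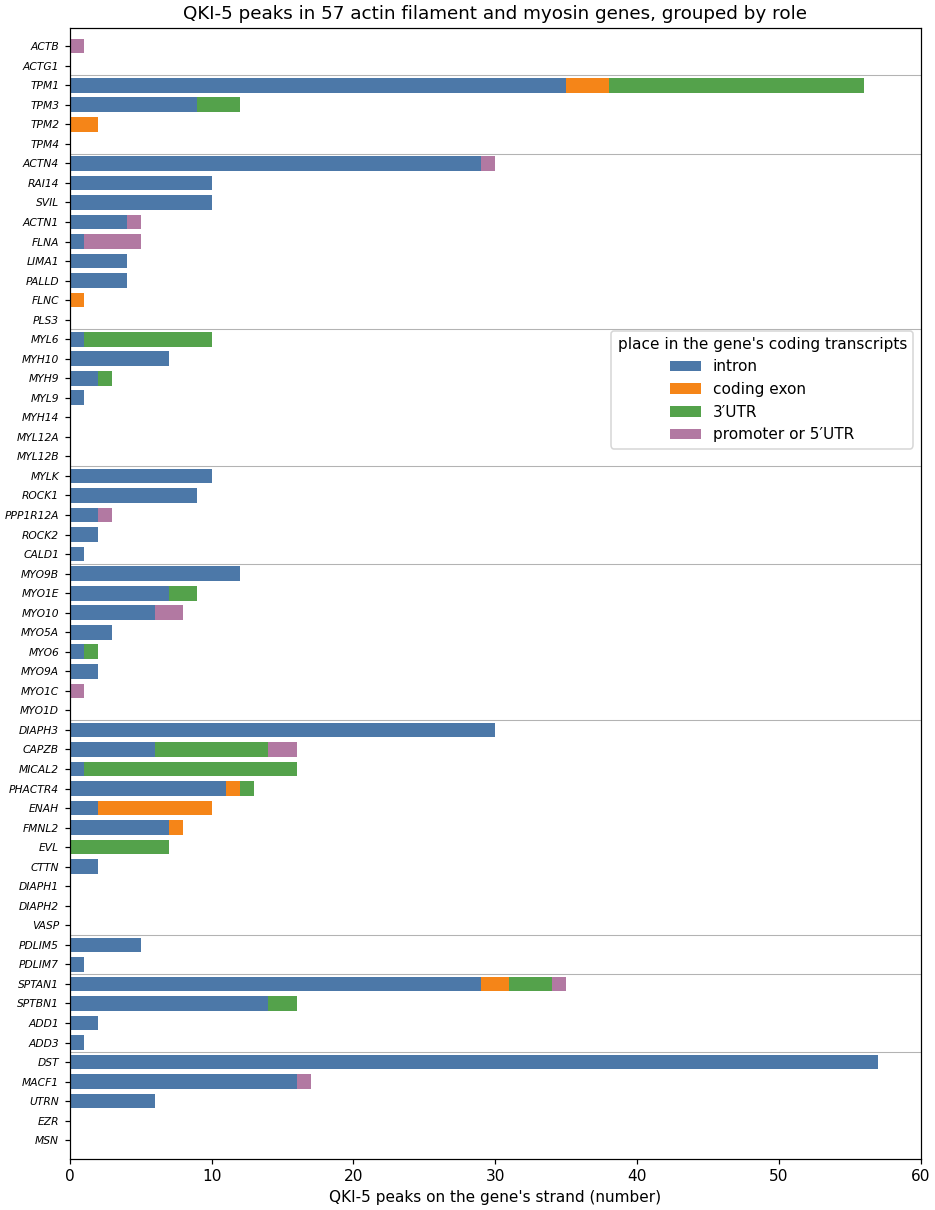
Number of QKI-5 peaks (x axis) in each of the 57 genes (y axis), with grey lines between the roles used in the text, and colours for the place of the peak centre in the gene's own coding transcripts. DST (57) and TPM1 (56) stand far above the rest, the DST peaks are intronic throughout, and 12 genes have no bar.

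Gene length moved with these counts. The 57 genes had a median length of 139 kb, and all protein-coding genes 27.2 kb. A peak was present in 46.8% of the 2163 protein-coding genes of 100 to 200 kb and in 15 of the 18 listed genes of that length. It was present in 46.0% of the 1503 genes of over 200 kb and in 16 of the 18 listed. In genes of 20 to 50 kb the values were 24.8% and 7 of 9, and in shorter genes 7.47% and 4 of 7. Of the 5 listed genes of 50 to 100 kb 3 held a peak, against 38.5% of all genes of that length. The choice of the list bears on these shares as well. The amount of each RNA in the cells was not measured here, and whether it accounts for part of these shares was not tested. A gene without a peak may be unbound, too little expressed, or too similar to another gene, since reads of low mapping quality had been discarded, and these cannot be told apart in this list.

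**Figure D2:**
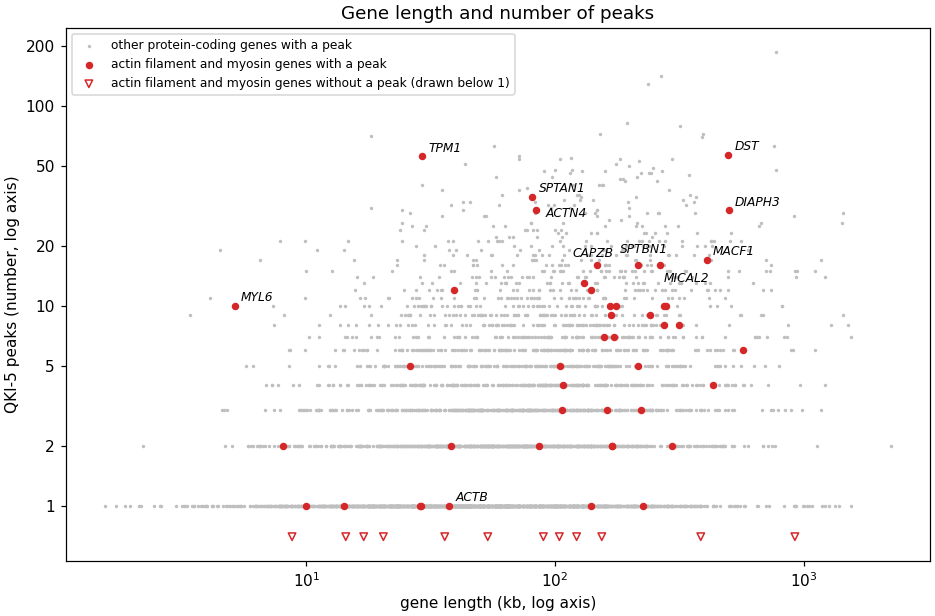
Gene length in kb (x axis, log) against the number of QKI-5 peaks (y axis, log) for the protein-coding genes with a peak (grey) and for the listed genes (red; open triangles drawn below 1 are the 12 without a peak). MYL6 (5.15 kb, 10 peaks) and TPM1 (29.3 kb, 56 peaks) lie high for their length, and DIAPH2 is the longest listed gene without a peak.

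The 2 cytoplasmic actins, which make up the filament itself, differed in the list. Peak height below is the whole-number signal deposited for each peak of the pooled libraries. ACTB, β-actin, held 1 peak, of height 128 at chr7:5568486-5568595. That peak lay in intron 3, with its centre 252 nt after the exon before and 190 nt before the exon after, and held the ACTAAC word printed above. The other, ACTG1, held none. The proteins of the pair are nearly identical.

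Tropomyosins are coiled-coil proteins that polymerise head to tail along the filament and exist in many forms through alternative internal and last exons. They held 70 peaks, with 56 in TPM1, 12 in TPM3, 2 in TPM2 and none in TPM4. Per 100 kb of gene, TPM1 had 191 peaks and TPM3 30.5. The TPM1 peaks all lay within 9.76 kb, chr15:63353316-63363074, the 3′ part of the gene, which holds its alternative last exons. Their heights ran from 10 to 208 with a median of 34.5, and 40 of the 56 reached the median of the whole list, 23. The tallest, chr15:63356342-63356478, and those of 153 and 122 just before it stood in a row at exon 9 of the canonical transcript, which is annotated as a cassette exon and runs on into a 3′UTR in other transcripts. In another row, the peak of 179 at chr15:63361979-63362138, whose centre was 11 nt before an exon downstream of the canonical transcript, directly followed one of 110 and preceded one of 57. Only 1 TPM1 peak held ACTAAC. It had a height of 21, and its word began 8 nt before a 76 nt cassette exon in intron 5, the position where the polypyrimidine tract and the 3′ splice site usually are.

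The TPM3 peaks ran from 15 to 40 with a median of 24.5, and 6 of the 12 lay in intron 5, which also holds a 76 nt cassette exon. Its ACTAAC peak, of height 25, was centred 174 nt before the last exon. The TPM2 peaks were of 39 and 12, both in a coding exon outside the canonical transcript.

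**Figure D3:**
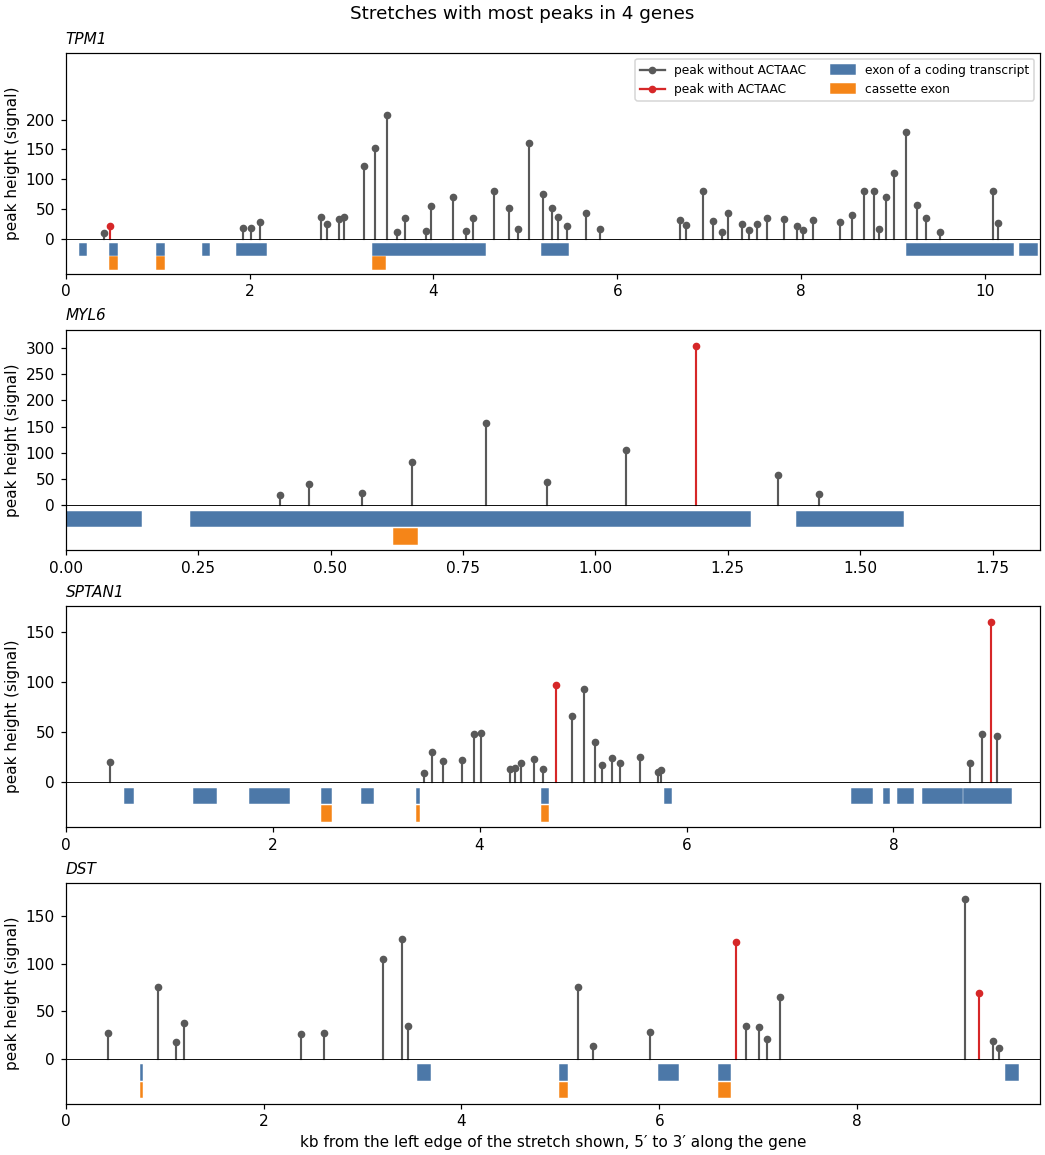
Peak height (y axis, signal) against position in kb along the gene (x axis, 5′ to 3′) in the stretch with most peaks of TPM1 (56 peaks), MYL6 (10), SPTAN1 (26) and DST (21), with exons of coding transcripts in blue and cassette exons in orange. Peaks stand in rows, some beside cassette exons and ends of transcripts and others in the middle of introns. Over the whole genes, 7 of 56 peaks in TPM1, 6 of 10 in MYL6, 12 of 35 in SPTAN1 and 5 of 57 in DST were in or within 250 nt of a cassette exon. The red peaks, with ACTAAC, include the tallest shown of MYL6 (304) and SPTAN1 (160).

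Of the crosslinkers and bundlers, 8 of 9 held peaks, 69 in all. ACTN4, α-actinin-4, which links filaments in stress fibres and at the cell edge, accounted for 30. Of these 22 lay in intron 8, within 3.58 kb at chr19:39201391-39204967, an intron that contains an 86 nt cassette exon and precedes the 93 nt exon 9, also a cassette. The heights in ACTN4 ran from 8 to 96 with a median of 21, and the tallest, chr19:39203257-39203372, held ACTAAC and had a neighbour of 90 directly after it. Its paralog ACTN1 held 5 peaks, of 38, 27, 27, 26 and 26, all in introns and none with the word.

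RAI14, an ankyrin-repeat protein of actin bundles, and SVIL, supervillin, which ties myosin II and filaments to the membrane, held 10 peaks each. The RAI14 peaks ran from 10 to 84 with a median of 20, and 8 lay in intron 10, within 1.22 kb. The tallest, of 84 at chr5:34813595-34813688, ran across the 3′ splice site of the 87 nt cassette exon 11 and held the word 2 times, at 49 and 40 nt before the exon. This is the stretch of an intron in which branch points usually lie, and the ACUAAC word is itself close to the yeast branch point sequence. The SVIL peaks ran from 10 to 93 with a median of 25, none with ACTAAC, and 6 lay within 3.50 kb in introns 7 and 8, on both sides of the 930 nt cassette exon 8.

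The remaining crosslinkers had few and low peaks. FLNA, filamin A, a large flexible crosslinker, held 5 peaks of 35, 26, 23, 19 and 17, all in intron 30, and the one of 26 was centred 125 nt before exon 31, a cassette. FLNC held 1 of 22, in exon 30. LIMA1, which stabilises filaments, held 4 intronic peaks of 28, 26, 23 and 20. PALLD, palladin, a scaffold of stress fibres, held 4 of 22, 21, 16 and 7, side by side in intron 10. PLS3, the bundler plastin 3, held none.

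In myosin II, the motor of contraction, 4 of 7 chains held 21 peaks. MYL6, the essential light chain, held 10, which is 194 per 100 kb in a gene of 5.15 kb. Along the gene their heights were 19, 40, 24, 82, 156, 45, 105, 304, 58 and 21, within 1.04 kb at chr12:56554190-56555234. The peak of 82 was centred in exon 6, the 45 nt cassette exon that separates the smooth muscle form of this chain from the non-muscle form, and 6 peaks were in or within 250 nt of it. The tallest, chr12:56554927-56555033, was the tallest of all 465 and held the only ACTAAC of the gene. It lay in intron 6, between exon 6 and the last exon, in a stretch that some coding transcripts retain as 3′UTR.

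The heavy chains had fewer. MYH10, non-muscle myosin IIB, held 7 peaks from 12 to 38 with a median of 23, 6 of them classed as intronic, and the highest pair, of 38 and 35, both held ACTAAC, several kb from any exon. MYH9, non-muscle myosin IIA, held 3 of 23, 17 and 16. MYL9, a regulatory light chain of smooth muscle and stromal cells, held 1 of 31 in intron 2. The other regulatory light chains, MYL12A and MYL12B, which are close copies of each other, and the heavy chain MYH14 held none.

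All 5 genes of the regulators of myosin II and their filament partner held peaks, 25 in all. MYLK, myosin light chain kinase, held 10 from 5 to 68 with a median of 21.5, and 7 of them lay within 1.54 kb of intron 29, the tallest of these with ACTAAC. ROCK1, a kinase that raises light chain phosphorylation, held 9 from 14 to 95 with a median of 23. Its tallest, chr18:18623927-18623968, was only 42 nt wide, and its ACTAAC began 99 nt after the exon before intron 6. ROCK2 held 2, of 50 with the word and 24 without. PPP1R12A, the targeting subunit of myosin phosphatase, held 3 of 27, 26 and 25, and the one of 26 held the word. CALD1, caldesmon, held 1 of 18.

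Of the unconventional myosins, which move cargo, membranes or filaments on their own, 7 of 8 held 37 peaks. MYO9B held 12, from 12 to 119 with a median of 26.5. Of these 5 lay in intron 15 and 3 in intron 37, each of which follows an annotated cassette exon. In intron 15, the peak of 69 was centred 132 nt after exon 15, and the peak of 119, printed above, 103 nt before the next exon, its ACTAAC beginning 63 nt from that exon. In intron 37, after the 48 nt exon 37, 3 peaks of 20, 48 and 45 followed each other to within 93 nt of the next exon, and the last held ACTAAC 87 nt before it. Thus both MYO9B words lay shortly before a 3′ splice site.

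The other members of this group were lower. MYO1E held 9 peaks from 14 to 39, 5 of them in intron 1. MYO10, the motor of filopodia, held 8 from 15 to 30. MYO5A held 3 of 27, 27 and 23. MYO6, which moves toward the pointed end of filaments, held 2, of 53 in intron 33 and of 20 in the 3′UTR, and both held ACTAAC. MYO9A held 2 of 26 and 21, and MYO1C 1 of 16. MYO1D, at 385 kb the longest myosin of the list, held none.

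The genes of filament assembly held 102 peaks in 8 of 11 members, and 14 of these peaks held ACTAAC. Among the formins, which nucleate and elongate unbranched filaments, DIAPH3 held 30 and its paralogs DIAPH1 and DIAPH2 none, although DIAPH2 is longer, at 920 kb, than DIAPH3, at 498 kb. The DIAPH3 peaks were scattered with no more than 5 in any 10 kb, were all intronic, and ran from 11 to 58 with a median of 25. ACTAAC was present in 6 of them. Of these, the peak of 39 at chr13:60707001-60707081 had its word 40 nt after exon 2, a 33 nt cassette, and the rest lay over 1 kb from an exon. FMNL2 held 8 from 13 to 35, and 3 of them lay before, in and after the same 126 nt cassette exon in intron 25, the one before it with ACTAAC 80 nt from the exon.

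ENAH and EVL are Ena/VASP proteins, which keep filament ends growing in lamellipodia and filopodia. The ENAH peaks numbered 10, from 16 to 55 with a median of 24.5 and without ACTAAC, and 8 of them lay within 2.38 kb in or beside exons 5 and 6, in exon sequence of coding transcripts. The 7 of EVL stood in 1 run in intron 11, which some transcripts annotate as 3′UTR. Along the gene they measured 119, 64, 104, 12, 53, 41 and 48, beginning with the peak printed above, centred 101 nt after the 63 nt cassette exon 11. The median of EVL, 53, was above that of each other gene with at least 5 peaks. VASP itself held none.

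CAPZB, the β subunit of capping protein, which closes the fast-growing end, held 16 peaks from 11 to 77 with a median of 23. Of these 8 lay in 1.29 kb after a 113 nt cassette exon near the 3′ end, in the 3′UTR of coding transcripts, and the tallest, with ACTAAC, lay far inside intron 1. MICAL2, an enzyme that oxidises actin and so takes filaments apart, also held 16, from 10 to 185 with a median of 22. In MICAL2, 15 were in 3′UTR sequence around the 58 nt cassette exon 27, with 46 over the exon, then 185 and 121 directly after it. The peak of 185 held ACTAAC 2 times. CTTN, cortactin, a partner of branched filaments, held 2 of 15 and 11.

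PHACTR4, which binds actin monomers and protein phosphatase 1, held 13 peaks from 11 to 182 with a median of 21. The tallest, chr1:28793085-28793248, was in coding exon 6 and held ACTAAC, whereas 11 others were low and in intron 2, the highest of them 40. Of the PDZ-LIM scaffolds of stress fibres, PDLIM5 held 5 of 52, 35, 21, 20 and 10, with ACTAAC in those of 52 and 20, and PDLIM7 held 1 of 25, centred 28 nt after exon 4.

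All 4 genes of spectrin and adducin, the membrane skeleton, held peaks, 54 in all. SPTAN1, αII-spectrin, held 35 from 9 to 160 with a median of 23. Of these 21 lay in intron 51, around an 18 nt exon 51 and a 63 nt exon, both cassettes, with heights of 97, 66 and 93 following the 63 nt exon. The word of the first began 80 nt after that exon. A smaller group stood at the 60 nt cassette exon 23, with 37 and 50 before it and 63 after it. The tallest SPTAN1 peak, printed above, lay in the 3′UTR in exon 57, between neighbours of 48 and 46. SPTBN1, βII-spectrin, its partner, held 16 from 12 to 230 with a median of 20. The peak of 230 lay in intron 32, 318 nt after the end of an exon whose 3′UTR held the next tallest, of 90, and 10 of the 16 lay in that intron. ADD1 held 2 of 26 and 21, the lower 65 nt before the 93 nt cassette exon 13, and ADD3 held 1 of 21.

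The last group anchors filaments to microtubules and membranes. DST, dystonin, and MACF1 are spectraplakins, giant linkers of actin and microtubules, and held 57 and 17 peaks. The DST peaks ran from 11 to 178 with a median of 26, or 11.5 per 100 kb, and each was in an intron of its coding transcripts. Near the 3′ end 21 stood in 9.05 kb, chr6:56325109-56334154, with 75, 76 and 123 placed 160, 110 and 61 nt after exons 98, 100 and 102, which are cassettes of 18, 72 and 111 nt. The peak of 123 held ACTAAC 59 nt after exon 102. The tallest DST peak, chr6:56488187-56488343 with ACTAAC, lay in intron 36, which held 11. In introns 2 to 10 no DST peak exceeded 48. The MACF1 peaks ran from 15 to 145 with a median of 23, the tallest with ACTAAC in intron 61, and the next, of 67, was centred 185 nt before the 69 nt cassette exon 97. UTRN, utrophin, held 6 from 14 to 24, 3 with ACTAAC. EZR and MSN, ezrin and moesin, which tie filaments to the membrane, held none.

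**Figure D4:**
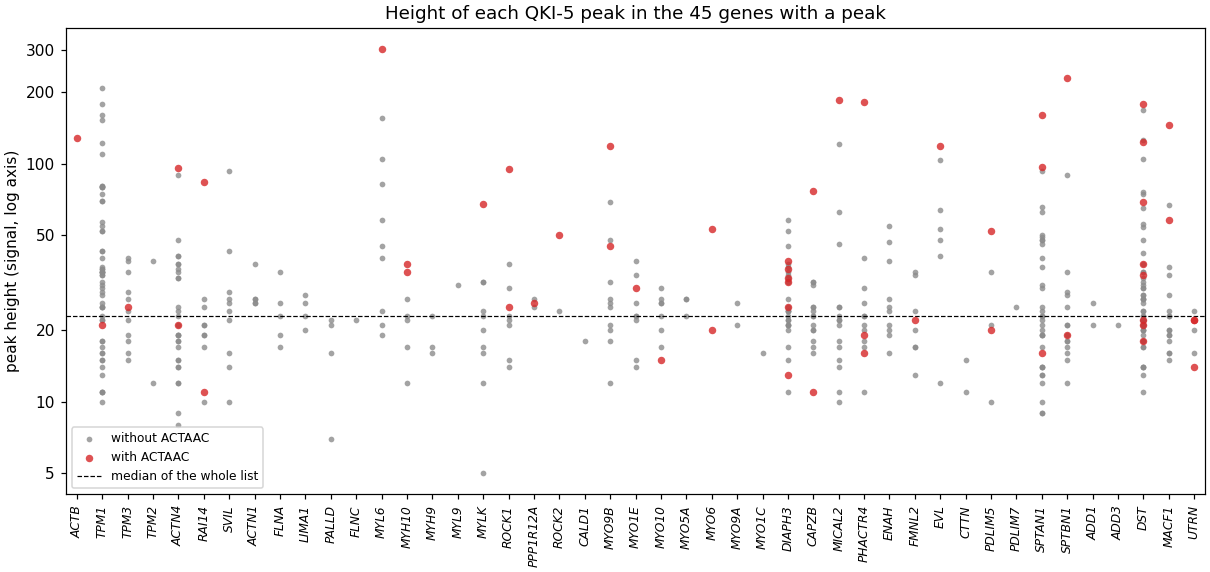
Height of each of the 465 peaks (y axis, signal, log) in the 45 genes with a peak (x axis, ordered as in the text), red where the peak holds ACTAAC, with a dashed line at the median of the whole list, 23. Red points are the highest of ACTB, MYL6, SPTBN1, MICAL2, PHACTR4, SPTAN1, DST and MACF1, and grey points are the highest of TPM1, ENAH and SVIL.

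Over the 465 peaks, the heights had a median of 24 (95% interval 23 to 25) and ran from 5 to 304, and the 22257 peaks in all protein-coding genes had a median of 23. In both sets a peak that falls in several overlapping genes counts in each, but none of the 465 centres lay in a further protein-coding gene on the strand. ACTAAC was present in 55 of the 465 peaks (11.8%, 9.20 to 15.1%), in 27 of the 45 genes, against 10.3% of the peaks in all protein-coding genes, so the interval holds the background. In windows of the same length 500 nt to the 5′ and 3′ side the share was 1.51 and 2.58%, and on the opposite strand of the peaks 0.645%.

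Peaks with the word were taller and wider. Their median height was 35 (25 to 53) in the listed genes, against 23 (23 to 25) for the others, and in all protein-coding genes it was 27 against 23. Their median width was 80 nt against 62 nt in the listed genes, and 72 against 61 nt in all protein-coding genes. A wider peak has more room for a word, and whether width accounts for the difference in height was not tested. Of the 24 peaks with a height of 100 or more, a limit set after the heights were seen, 11 held ACTAAC (45.8%, 27.9 to 64.9%), and in all protein-coding genes 24.8% did. Of the other 13, 6 were in TPM1, 3 in DST, 2 in MYL6 and 1 each in EVL and MICAL2. Thus a tall peak without the word stood most often in TPM1, where 1 of 56 peaks held it.

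The peaks of these genes lay closer to exons than peaks in general. In or within 250 nt of an exon of a coding transcript were 172 (37.0%, 32.7 to 41.5%), against 21.8% in all protein-coding genes. The 20.0% with a centre in an exon compared with 12.2%, and the 10.1% (7.69 to 13.2%) in the 250 nt before a 3′ splice site with 4.07%. After a 5′ splice site the share was 6.88% (4.92 to 9.55%) against 5.49%, so that the interval held the background. Peaks over 5000 nt from an exon made up 16.8% against 27.6%. Intronic peaks were counted at the nearer splice site. Of the 93 peaks centred in an exon, TPM1 held 21, MICAL2 15, CAPZB 10, MYL6 9, ENAH 8 and EVL 7. No other gene held more than 5, and the share centred in an exon was not recomputed without the genes named. Peaks of the same gene share its RNA and often adjoin, as 38.9% had another within 100 nt, so these intervals, which cover counting error only, are too narrow for a statement about genes.

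All annotated transcripts were then used, and each peak took the first class that held its centre, beginning with the promoter (from 1000 nt upstream to 100 nt downstream of any transcript start) and going on to 5′UTR, 3′UTR, exon and intron. In this scheme 271 of the 465 peaks were intronic (58.3%, 53.7 to 62.7%), against 72.6% in all protein-coding genes. The 3′UTR held 13.1% against 9.73%, exons 10.1% against 6.32%, and the promoter class 18.1% against 10.7%. In that last class 67 of 84 peaks lay in introns of the gene's coding transcripts (79.8%), against 79.5% in all protein-coding genes. When only the coding transcripts of the gene itself were used, introns held 77.8% (73.9 to 81.4%) against 86.0%, the 3′UTR 15.1% (12.1 to 18.6%) against 8.27%, and promoters 2.80% against 2.85%. The 70 peaks in the 3′UTR by this count were concentrated in few genes. TPM1 held 18 of them, MICAL2 15, MYL6 9, CAPZB 8 and EVL 7, and no other gene held more than 3. This share was not recomputed without those genes.

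**Figure D5:**
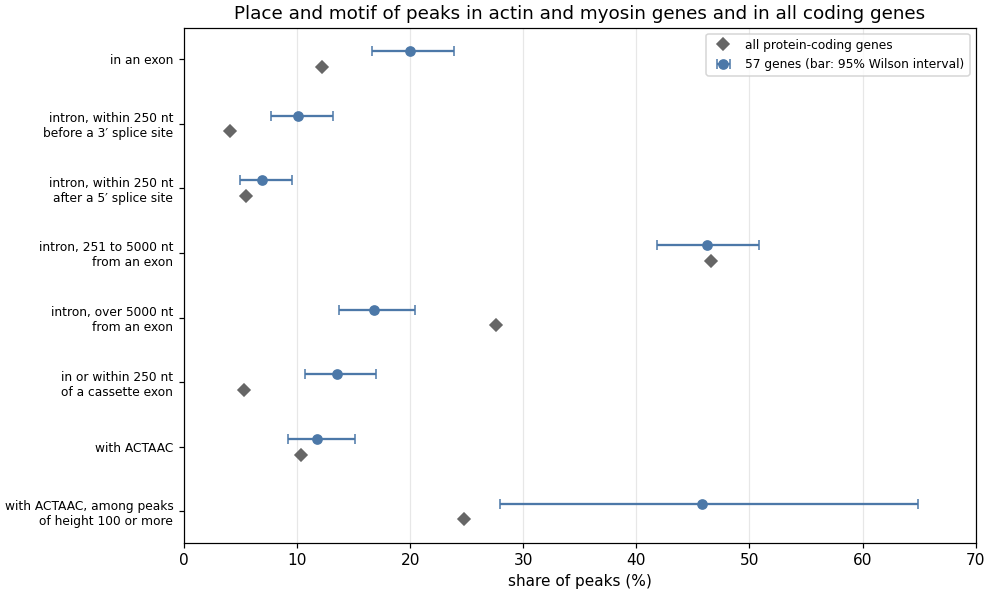
Share of peaks in percent (x axis) by place and motif (y axis), for the listed genes (blue points, bars are 95% Wilson intervals) and for all protein-coding genes (grey diamonds). The blue bars clear the grey diamonds in exons, before 3′ splice sites, over 5000 nt from an exon, at cassette exons and, for ACTAAC, among peaks of height 100 or more, but not for ACTAAC over all peaks.

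Cassette exons, which are internal exons that another coding transcript of the gene skips whole, were frequent neighbours. Of the 465 peaks 63 (13.5%, 10.7 to 17.0%), in 20 genes, were in or within 250 nt of one, against 5.27% in all protein-coding genes. With a distance of 100 nt the share was 5.81% (4.02 to 8.32%), against 2.86%. Of the 248 cassette exons in the 45 genes, counted after overlapping ones were joined, 30 had such a peak (12.1%, 8.61 to 16.7%), and of their 1095 other internal exons 28 had (2.56%, 1.77 to 3.67%). In all protein-coding genes with a peak, the shares were 5.57% and 1.87%. The listed genes also held more peaks each, with a median of 7 against 2, and the shares were not matched for this. The 30 exons measured 18 to 930 nt. The most peaks stood at MYL6 exon 6, with 6, and then at TPM1 exon 9 and the 63 nt SPTAN1 exon, with 5 each. Annotated skipping does not show that an exon is skipped in these cells, which the peak list cannot tell.

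The 55 peaks held 58 ACTAAC words, 48 of them in introns, and each was counted at the nearer splice site. Of these 9, in 7 genes, began within 250 nt before a 3′ splice site, namely those of RAI14, MYO9B, TPM1, FMNL2, TPM3, SPTAN1 and ACTB. Another 5, in 4 genes, began within 250 nt after a 5′ splice site, in DST, SPTAN1, ROCK1 and DIAPH3. The same words were not counted over all protein-coding genes, so these counts describe the listed genes and do not set them apart.

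On the opposite strand of the listed genes the list had 7 peaks, 2 in MYL6 and 1 each in ENAH, MACF1, MYLK, PALLD and TPM3, which were not counted above. Among 80 other genes of the same families found in the annotation, 13 held a peak (16.2%, against 23.6% of all protein-coding genes). MICAL3 held 129, up to 693 in height, MYO18A 34, INF2 13 and CAPZA1 11, and the sarcomeric actin ACTA1 is among those without. Of 49 further genes of actin assembly, such as the Arp2/3 complex, profilins and cofilins, 25 held a peak (51.0%, against the same 23.6%). MPRIP, which recruits myosin phosphatase, held 51, the nucleator SPIRE1 25 and the profilin PFN2 19. Gene length was not matched in these counts. These lists were drawn up with earlier results of the same data known, so their shares describe them and do not set them apart.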

How the data were processed

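Deposited values were a single list of peaks. Per the labels and the study's methods, the authors trimmed reads (cutadapt 1.3), mapped them to hg19 (TopHat2 2.0.10), removed duplicates using a molecular barcode, filtered on mapping quality (SAMtools), pooled the immunoprecipitation libraries and called peaks per strand against size-matched input (MACS2 2.1.1.20160309). The deposited height is a signal, 1 whole number per peak, and depth per library is unknown. Pooled reads of an abundant RNA can give more and taller peaks, and the barcode step limits PCR duplicates.

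Peak starts were read as counted from 0 and are printed from 1. Gene models were GENCODE release 44 placed on GRCh37, used with strand, without the 18 mitochondrial peaks. Canonical exon numbers follow its Ensembl canonical transcript. ACTAAC was searched on the gene's strand within each peak. No tests were run, because the pooled list has no replicates. Shares have 95% Wilson intervals, which cover counting error only, and medians have order-statistic intervals. Every gene is given by its number of peaks, single heights are given up to 5 peaks and otherwise lowest, median and highest, and positions for the 10 genes with most peaks, those with the 5 tallest peaks and those with ACTAAC at an exon. Genes and lists were chosen with earlier results of these data known. The height limit of 100, the 10 kb stretches and the comparison of cassette with other internal exons were added after the peaks were seen. Lookups were tested on simulated data, where 0 of 1000 differed from a direct search. Python 3.11.15 with numpy 2.4.6, scipy 1.17.1, pysam 0.24.0 and matplotlib 3.10.9 was used, and samtools 1.23.1.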

Additional observations from a re-analysis of the deposited data

How the results depend on the processing

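Because the libraries were pooled into 1 list, no replicate could be left out. No paired analysis was possible because the list has no column per library and no test was run. The 7 summary values were recomputed under 12 settings, giving 48 values, of which 40 stayed within the 95% interval of the value in the report or, for counts, within 1.5 times of it. When peaks lower than the list's median were dropped, 264 peaks in 39 genes were left, with a median height of 34, which follows from the filter. The intronic share was 96.8% with introns placed first and 77.8% from the gene's own coding transcripts. With 100 nt in place of 250 nt, 26.7% of peaks were in or beside an exon and 5.81% at a cassette exon. With exons of all transcripts these became 46.0 and 17.6%. Leaving out DST and TPM1, a choice made after the data were seen, gave 58.8% intronic, 36.9% in or beside an exon, 14.5% at a cassette exon and 13.1% with ACTAAC, each within its interval. The summit in place of the centre, overlap by 1 nt, merging of adjoining peaks and the word ACTAAT counted with ACTAAC moved no value out of its interval. Since depth is unknown, no counting interval can be given for the height of a peak.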
